A study of Homo sapiens with 6 samples.

Results

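MYC and 44 factors that build ribosomes were followed in a colorectal cancer line grown with or without the bile acid GCA. The 45 genes were taken by symbol from a deposited table of raw counts, and all 45 had a row among its 16229 genes. They comprise MYC, 5 multifunctional nucleolar proteins, 3 proteins of box C/D and 3 of box H/ACA ribonucleoprotein particles, 15 assembly factors of the small ribosomal subunit, 12 of the large subunit, 4 subunits of RNA polymerase I and 2 of RNA polymerase III. All 45 passed the filter on low counts, with between 136 and 19501 counts in any library.

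RNA was sequenced from 3 GCA libraries, made from cells kept 24 hours with GCA, and 3 CON libraries, made from cells kept without it. Both groups share the line (MC38, described as colorectal cancer cells) and a wild-type genotype. GCA is read here as glycocholic acid, a bile acid conjugated with glycine, because the title of the series names that compound, and the labels name no dose. MC38 is known as a mouse line, whereas the labels state human as the organism with build hg38 and the tables carry human symbols, and this conflict was left as it stands. The GCA libraries are titled fa, so each GCA value rests on the treatment label. The protocol speaks of heart tissue as the RNA source, and of a kit that removes ribosomal RNA where the molecule is given as polyA RNA. Nothing in the labels says that replicates were separate cultures, and every p-value below therefore reflects variation among these 6 libraries, possibly technical in origin.

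Ribosome production starts in the nucleolus, where RNA polymerase I transcribes the precursor of the large ribosomal RNAs, while RNA polymerase III makes 5S ribosomal RNA and transfer RNAs. Small nucleolar RNAs guide 2 kinds of modification on the precursor: box C/D particles methylate riboses and box H/ACA particles turn uridine into pseudouridine. Assembly factors then fold and trim the precursor into the small and the large subunit. MYC, a transcription factor that binds DNA as a dimer with MAX at the E-box, is known as a driver of genes of each of these steps, and Wnt signalling raises MYC in most colorectal cancers.

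Upstream sequence is described first, since MYC is known to bind the E-box. RefSeq promoter windows of GRCh38.p14 (250 bases before to 50 bases after the start) were found for 35 of the 45 members. MYC, NOLC1, NOP58, RRP12, BOP1, RRP1B, RRS1, DDX18, POLR1E and POLR3G had no entry. Both strands were searched for the E-box letters CACGTG, which are their own reverse complement, and for CCGGAAG, the core of sites for ETS factors; matches of these 2 motifs cannot share letters. The E-box letters occurred in 13 of 35 member windows (37.1%), in 1032 of 10155 windows of tested genes (10.2%) and in 7.26% of all 35116 windows. Of these 13 E-boxes 12 lay within 50 bases of the start. The ETS core occurred in 10 of 35 member windows (28.6%), in 19.2% of windows of tested genes and in 10.3% of all windows. The 7 members with either motif inside the 80 bases just before the start are shown because they place the motifs beside genes described further on; each line runs 5′ to 3′ on the gene's strand, ends at the base before the start, and has the E-box and ETS cores in capitals.
UTP4 (chr16:69132569-69132648, plus strand): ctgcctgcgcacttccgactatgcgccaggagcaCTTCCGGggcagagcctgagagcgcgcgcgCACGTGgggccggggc
UTP20 (chr12:101280025-101280104, plus strand): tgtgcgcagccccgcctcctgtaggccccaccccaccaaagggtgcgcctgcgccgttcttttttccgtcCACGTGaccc
NAT10 (chr11:34105549-34105628, plus strand): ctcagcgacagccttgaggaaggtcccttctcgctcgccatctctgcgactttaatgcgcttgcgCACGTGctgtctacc
DDX21 (chr10:68956090-68956169, plus strand): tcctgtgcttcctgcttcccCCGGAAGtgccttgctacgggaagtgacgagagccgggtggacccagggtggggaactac
GAR1 (chr4:109815430-109815509, plus strand): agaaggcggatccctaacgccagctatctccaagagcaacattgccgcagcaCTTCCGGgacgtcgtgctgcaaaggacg
TSR1 (chr17:2336458-2336537, minus strand): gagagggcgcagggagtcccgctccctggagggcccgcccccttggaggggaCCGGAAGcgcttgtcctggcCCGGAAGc
NOP16 (chr5:176388599-176388678, minus strand): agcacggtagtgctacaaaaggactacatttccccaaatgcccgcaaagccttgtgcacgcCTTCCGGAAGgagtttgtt
UTP4, UTP20 and NAT10 hold an E-box there, UTP4 also an ETS core, and NOP16 has the core on both strands with shared letters. A match describes these letters and says nothing of a factor's binding. Fold changes of members with and without an E-box are given further on, and a part of MYC in them was not tested.

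Total counts ran from 19484569 to 20531612 in GCA and from 18057453 to 19110987 in CON, and a floor of 3 counts in a library stood for 0.149 to 0.157 CPM in GCA and 0.155 to 0.167 CPM in CON (CPM, counts scaled to a common library total with TMM factors), covering counting error only. Of 11 markers of colorectal epithelium, KRT8, KRT19 and KRT18 led a sum of 11133 to 12705 CPM in GCA and 7920 to 10112 CPM in CON. CDX2 averaged 36.7 CPM in GCA and 30.8 CPM in CON, while VIL1, CDX1 and CEACAM5 averaged below 1 CPM in both groups. The leukocyte markers PTPRC and CD3E had at most 1 count in any library. The 6 leukocyte markers, nearly all CD68, summed to 14.7 to 25.3 CPM in GCA and 19.5 to 26.6 CPM in CON. The 7 fibroblast and endothelial markers, mostly COL1A1, summed to 16.8 to 18.6 CPM in GCA and 11.9 to 13.2 CPM in CON. The 7 cardiomyocyte markers, nearly all TNNI3, summed to 37.2 to 42.4 CPM in GCA and 23.5 to 26.8 CPM in CON, and 3 hepatocyte markers, nearly all SERPINA1, to 13.2 to 21.1 CPM in GCA and 3.62 to 6.42 CPM in CON. The part of these genes in the results on ribosome biogenesis was not tested.

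Genes of every class were among those lower in GCA. Of the 45 genes, 32 fell and none rose at an adjusted p under 0.05, judged by edgeR (quasi-likelihood F test, Benjamini-Hochberg adjustment over all 12604 tested genes), which is the source of each adjusted p below (n = 3 libraries per group). By the same rule 18.1% of all tested genes were lower and 18.3% higher in GCA. The log2 fold change (GCA over CON) was negative for 44 of 45 members, with a median of -0.55 against -0.04 over all tested genes. All 3 GCA libraries lay below all 3 CON libraries in 37 members, where 24.3% of tested genes did so, and in no member did they lie above (24.1% of tested genes). Such values are shares of the library: fewer cells of a type and less of an RNA per cell cannot be told apart in bulk RNA, and the total RNA per cell was not measured.

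Summed over the 45 members, CPM stood at 5385, 5114 and 4812 in GCA 1 to 3, against 8438, 6490 and 6447 in CON 1 to 3. CON 1 was the highest of the 6 libraries in 35 of 45 members, and GCA 3 the lowest GCA library in 28. Whether these ranks are particular to the members was not tested. The number of members called lower was 32 without CON 1 and 33 without replicate 1 of both groups, but 19 without GCA 3. The calls over all tested genes moved as well. There 3482, 3709 and 1128 genes were lower in these fits, in the same order, against 2277 with all 6 libraries. Leaving out CON 1 made the log2 fold change over 1.5 times smaller, or turned it, in 13 members with a negative value. Of these NCL (-0.36) and NOLC1 (-0.39) kept their calls; the 11 others, not called with all libraries either, were MYBBP1A (-0.18), FBL (-0.016), NHP2 (0.13), UTP14A (-0.095), RRP9 (-0.18), BYSL (-0.14), NOP2 (-0.024), NOP16 (-0.099), BOP1 (-0.16), PES1 (-0.16) and RRS1 (0.083). With the replicate number as a block 35 members were lower, where 21% of all tested genes were.

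**Figure D1:**
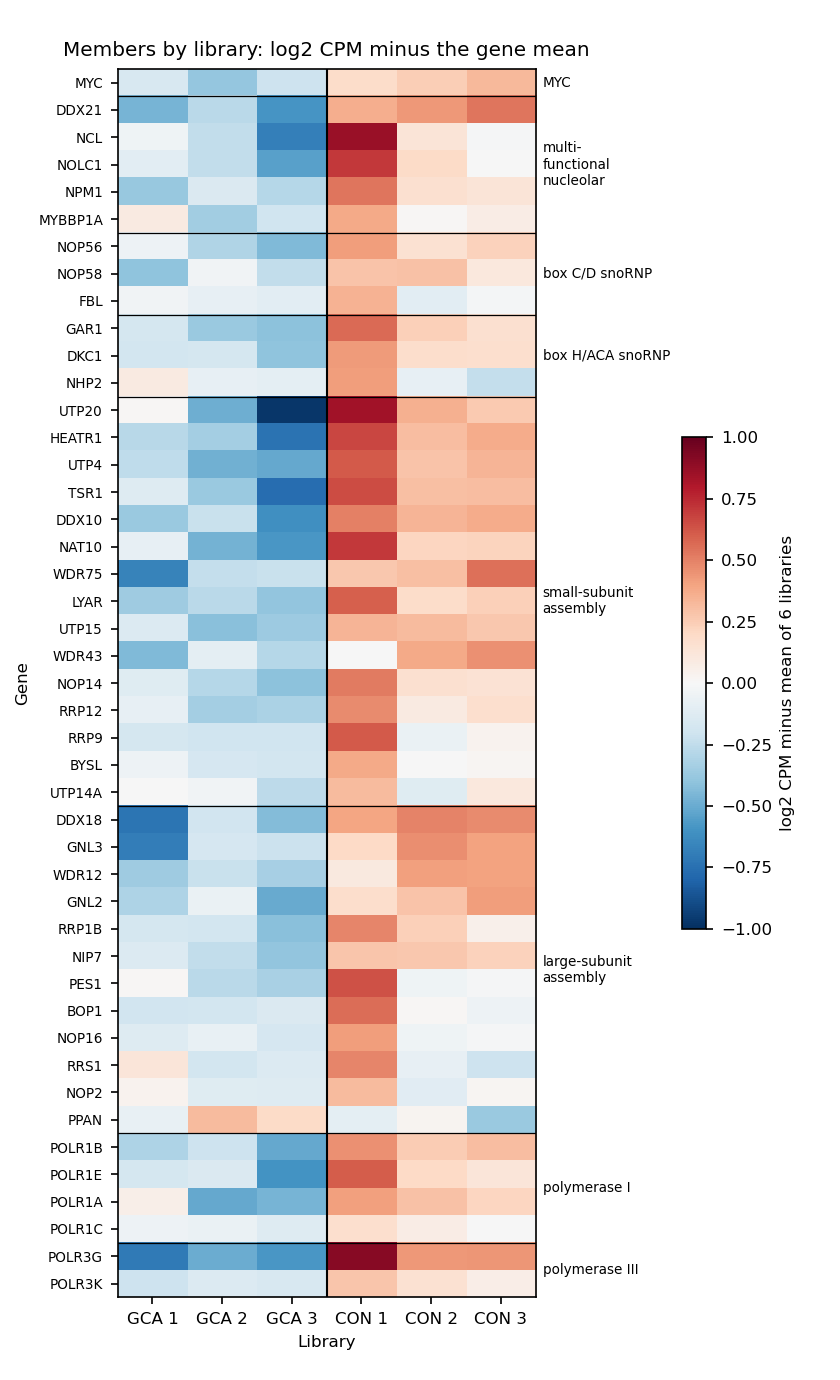
Each row is 1 of the 45 members and each column 1 library (GCA 1 to 3 left of the line, CON 1 to 3 right of it); colour gives log2 CPM minus the gene's mean over the 6 libraries, from -1 (blue) to 1 (red). GCA columns are mostly blue and CON columns mostly red, CON 1 is the highest library in 35 members, and PPAN runs against the pattern.

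MYC itself fell. MYC (chromosome 8, 127735434 to 127742951, GRCh38, RefSeq) had 423, 363 and 410 CPM in GCA 1 to 3, against 537, 560 and 593 CPM in CON 1 to 3. The groups did not overlap, and the highest GCA library was the first while the highest CON library was the third. The log2 fold change was -0.50 ± 0.12 (SE; edgeR adjusted p = 0.00824). It was -0.72 with the correction for GC content and length described further on (adjusted p = 0.000812), and the call was lost without GCA 2 (adjusted p = 0.0508).

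Genes of the proteins that pair with MYC, compete with it or control it, from a list of 16, numbered 15 with a row, all tested. Of these 3 were called lower and 3 higher, shares near the 18.1% and 18.3% over all tested genes, and the median log2 fold change was 0.02; with the correction 1 was lower and 2 higher. MXD4, a MAX partner known as a repressor that opposes MYC, showed the widest change. Its level was 179, 222 and 213 CPM in GCA 1 to 3, against 51.0, 54.9 and 52.1 CPM in CON 1 to 3. Every GCA library was more than 3 times the highest CON library (log2 fold change 1.96 ± 0.13, adjusted p = 7.90e-07), and with the correction the value was 1.55 (adjusted p = 4.71e-05). The related repressor gene MXD3 rose by 0.60 ± 0.13 (adjusted p = 0.00338), and MLXIPL, which encodes the glucose-responsive factor ChREBP, by 0.59 ± 0.17 (adjusted p = 0.0183). Both calls were lost with the correction, which left log2 values of 0.16 and 0.17, and the MLXIPL call also when single libraries were left out (adjusted p up to 0.0872).

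MAX, the partner that MYC and the MXD proteins share, averaged 60.8 CPM in GCA and 60.1 CPM in CON (log2 0.02 ± 0.11, adjusted p = 0.92). USP28, a deubiquitinase known to stabilise MYC protein, fell by 0.86 ± 0.21 (adjusted p = 0.00738). MGA, another MAX partner, and MYCBP2, a large ubiquitin ligase that binds MYC, fell by 0.57 and 0.49 (adjusted p = 0.0278 and 0.0295); with the correction these were -0.21 and -0.11 and no longer called, and without single libraries their adjusted p reached 0.136 and 0.141. Not called were ZBTB17 (log2 0.33), MXD1 (0.61), MNT (0.26), FBXW7 (-0.46), MYCL (-0.22), MLX (-0.12), MXI1 (-0.17) and MLXIP (0.02). Of these, MXD1 passed with the correction (0.95, adjusted p = 0.0142) and with the replicate block (adjusted p = 0.0225), and ZBTB17 with the block (adjusted p = 0.0475).

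**Figure D2:**
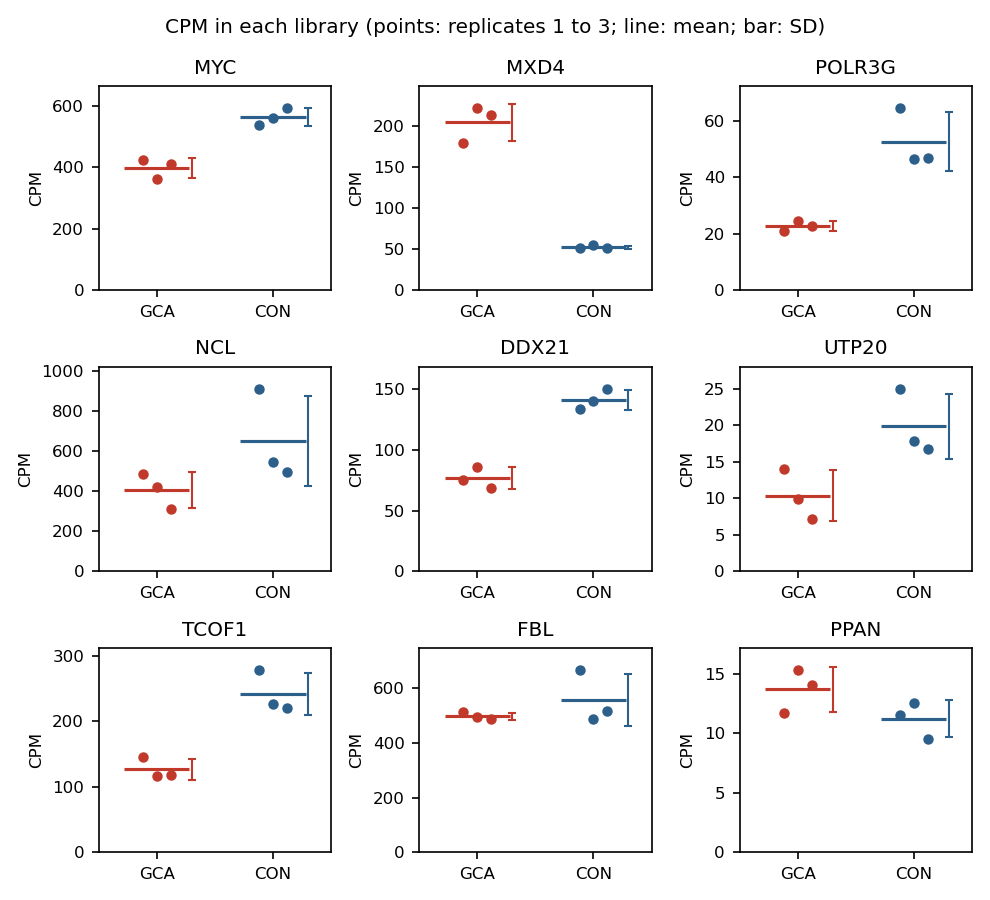
CPM per library for 7 members and for MXD4 and TCOF1, which lie outside the members; GCA is left and CON right in each panel, points are replicates 1 to 3, lines are means, bars are SD (n = 3), and each axis starts at 0. MXD4 is higher in each GCA library, FBL and PPAN overlap between the groups, and the other 6 genes are lower in each GCA library.

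The RNA polymerase genes held the widest fall. POLR3G (chromosome 5, 90473929 to 90514557), a polymerase III subunit known from stem cells and proliferating cells, had 21.1, 24.4 and 22.9 CPM in GCA 1 to 3, against 64.6, 46.6 and 46.8 CPM in CON 1 to 3. The groups lay far apart, and CON 1 stood above the other CON libraries. The log2 fold change of POLR3G was -1.21 ± 0.15 (adjusted p = 9.69e-05). It was the only member past a log2 change of 1, and the call held in 20 of 20 alternatives. With the correction the value was -0.88, and without replicate 1 of both groups -0.96.

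The paralog POLR3GL, whose protein takes the same place in the enzyme, averaged 12.8 CPM in GCA and 11.6 CPM in CON (log2 0.14 ± 0.16, adjusted p = 0.51); the difference between both genes' changes was not tested. POLR3K, a small polymerase III subunit, had 23.2, 24.2 and 23.9 CPM in GCA, against 32.4, 29.7 and 28.0 CPM in CON. It passed narrowly (log2 -0.34 ± 0.12, adjusted p = 0.0474), and 12 of 20 alternatives lost the call, among them the correction (-0.15, adjusted p = 0.29). Of 25 other polymerase III subunits and initiation factors, all tested, 6 were lower and 1 higher, with a median of -0.22. Over all tested genes 18.1% were lower and 18.3% higher. The catalytic subunit gene POLR3A fell by 0.65, SNAPC5 by 0.77 and POLR3E by 0.49 (adjusted p = 0.00143, 0.00432 and 0.00515), and all 3 calls held with the correction.

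In polymerase I, 3 of 4 members fell, where 18.1% of all tested genes were lower. With the correction 3 of 4 were lower as well, where 13.5% of all tested genes were. POLR1B, the second-largest subunit, had 37.9, 40.6 and 32.9 CPM in GCA 1 to 3, against 64.4, 55.9 and 57.9 CPM in CON 1 to 3. The groups stood well apart (log2 -0.68 ± 0.12, adjusted p = 0.0013), and this call held in 20 of 20 alternatives. POLR1A, the largest subunit, fell by 0.59 ± 0.15 and POLR1E by 0.62 ± 0.16 (adjusted p = 0.00975 and 0.0099). Both calls were lost without GCA 3 (adjusted p up to 0.069 and 0.0642 over their alternatives), and that of POLR1A also without GCA 2. POLR1C, which polymerases I and III share, averaged 42.7 CPM in GCA and 47.8 CPM in CON (log2 -0.16 ± 0.11, adjusted p = 0.276).

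Another 16 genes encode subunits of polymerase I, some of them shared with other RNA polymerases, and its initiation factors. Of these 2 were lower and none higher, where 18.1% of all tested genes were lower, with a median of -0.16. RRN3, the initiation factor that links polymerase I to growth signals, fell by 0.50 ± 0.15 (adjusted p = 0.0192), and TAF1A of the promoter selectivity factor by 0.68 ± 0.21 (adjusted p = 0.0209). Both calls were lost with the correction (-0.16 and -0.33) and when single libraries were left out (adjusted p up to 0.0943 and 0.0784).

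Among the multifunctional nucleolar proteins 4 of 5 fell, where 18.1% of all tested genes were lower. With the correction 2 of 5 were lower, where 13.5% of all tested genes were. DDX21, a nucleolar RNA helicase, had 75.2, 86.4 and 69.1 CPM in GCA 1 to 3, against 134, 140 and 150 CPM in CON 1 to 3. The groups were far apart relative to their spread (log2 -0.88 ± 0.12, adjusted p = 0.000252), and the call held in 20 of 20 alternatives. NCL, the gene of nucleolin, had 486, 421 and 312 CPM in GCA 1 to 3, against 911, 546 and 496 CPM in CON 1 to 3. GCA 1 and CON 3 nearly touch, and CON 1 stands well above the rest (log2 -0.68 ± 0.22, adjusted p = 0.029). The NCL call was lost with the correction (-0.56, adjusted p = 0.113) and without GCA 2 or GCA 3 (adjusted p up to 0.158 over its alternatives), and just held without CON 1 (-0.36, adjusted p = 0.0495).

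NPM1, the gene of nucleophosmin, an abundant nucleolar histone and ribosome chaperone, had 577, 679 and 615 CPM in GCA 1 to 3, against 1086, 838 and 820.5 CPM in CON 1 to 3. It fell by 0.55 ± 0.15 (adjusted p = 0.0109), and the correction left -0.29 (adjusted p = 0.145). GENCODE release 29 names 45 pseudogenes of NPM1, more than of any other member, so reads can be split between copies and its value is uncertain. NOLC1, a chaperone of small nucleolar particles, fell by 0.62 ± 0.18 (adjusted p = 0.0171), with -0.50 after the correction (adjusted p = 0.0742); without GCA 3 both calls were lost as well, and so were those of NPM1 without GCA 1 and NOLC1 without GCA 2. MYBBP1A, a nucleolar protein that binds MYB, averaged 157 ± 24.5 CPM in GCA and 194 ± 27.3 CPM in CON (SD, n = 3 each; log2 -0.30, adjusted p = 0.118). The replicate block gave a call (adjusted p = 0.0354), as did the correction (-0.59, adjusted p = 0.00747).

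Of the core proteins of the small nucleolar particles, 2 of 3 fell in each kind without the correction, where 18.1% of all tested genes were lower. With it, 2 of 3 were lower in box C/D and 3 of 3 in box H/ACA particles, where 13.5% of all tested genes were. In box C/D particles the scaffold genes NOP56 and NOP58 fell by 0.53 ± 0.13 and 0.45 ± 0.13 (adjusted p = 0.00895 and 0.0152), while FBL, the gene of the methyltransferase fibrillarin, was not called. FBL had 512, 495 and 487 CPM in GCA 1 to 3, against 667, 488 and 517 CPM in CON 1 to 3, so the groups overlapped and CON 1 alone stood high (log2 -0.16 ± 0.14, adjusted p = 0.385). In box H/ACA particles DKC1, the pseudouridine synthase gene, and GAR1 fell by 0.51 ± 0.12 and 0.65 ± 0.14 (adjusted p = 0.00662 and 0.00355). NHP2, their RNA-binding partner, had 233, 207 and 204 CPM in GCA 1 to 3, against 292, 206 and 185 CPM in CON 1 to 3 (log2 -0.08 ± 0.16, adjusted p = 0.707).

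FBL and NHP2 passed with the correction (-0.48 and -0.35, adjusted p = 0.00358 and 0.0271), which removed the NOP58 call (-0.16, adjusted p = 0.28). The GAR1 call held in 20 of 20 alternatives, whereas DKC1, NOP56 and NOP58 lost theirs without GCA 3, and NOP58 also without GCA 1 or CON 2. Of 12 other particle proteins and assembly factors 4 were lower and 1 higher, where 18.1% of all tested genes were lower and 18.3% higher. TCOF1, the gene of treacle, a nucleolar protein that joins polymerase I to the modification of its transcript, led them with 146, 117 and 119 CPM in GCA 1 to 3, against 279, 227 and 220 CPM in CON 1 to 3. It fell by 0.93 ± 0.14 (adjusted p = 0.000371), and the corrected value was -1.18 (adjusted p = 0.00034). SHQ1 and ZNHIT6, assembly factors of the H/ACA and C/D particles, fell by 0.65 and 0.68, and PIH1D1 of a chaperone complex rose by 0.36; none of these 3 calls held with the correction, and that of PIH1D1 was also lost when single libraries were left out (adjusted p up to 0.123).

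In small-subunit assembly 12 of 15 members fell, where 18.1% of all tested genes were lower, and the median over all 15 was -0.69 on the log2 scale. In 14 of them the GCA libraries all lay below the CON libraries, where 24.3% of tested genes did so. With the correction 10 of 15 were lower, where 13.5% of all tested genes were. UTP4, HEATR1, WDR75, UTP15 and WDR43 belong to one module (UTP-A, or t-UTP) that binds the nascent precursor first, and all 5 fell. UTP4 had 83.0, 71.1 and 69.5 CPM in GCA 1 to 3, against 151, 121 and 125 CPM in CON 1 to 3 (log2 -0.83 ± 0.13, adjusted p = 0.000485). HEATR1 had 38.9, 37.2 and 28.2 CPM in GCA, against 74.6, 58.2 and 60.8 CPM in CON (-0.89 ± 0.15, adjusted p = 0.000688). Neither gene's groups came near each other. WDR75, UTP15 and WDR43 fell by 0.74, 0.61 and 0.56. With the correction UTP4 (-0.65) and WDR75 (-0.40, adjusted p = 0.0497) kept their calls, and HEATR1, UTP15 and WDR43 did not (adjusted p = 0.0554, 0.259 and 0.089).

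UTP20, a giant scaffold protein gene of the same pathway, had 14.1, 9.98 and 7.12 CPM in GCA 1 to 3, against 25.0, 17.9 and 16.8 CPM in CON 1 to 3. The groups did not overlap, but GCA 1 stood well above GCA 3. UTP20 fell by 0.93 ± 0.23 (adjusted p = 0.0076; -0.62 and adjusted p = 0.147 with the correction). TSR1, a GTPase-like factor of late small-subunit precursors, had 63.5, 53.6 and 40.8 CPM in GCA 1 to 3, against 109, 85.6 and 85.7 CPM in CON 1 to 3 (-0.83 ± 0.16, adjusted p = 0.00203). NAT10, the acetyltransferase of 18S ribosomal RNA, had 110, 84.0 and 77.9 CPM in GCA, against 191, 136 and 136 CPM in CON (-0.77 ± 0.17, adjusted p = 0.00369). In both genes the groups stayed apart although GCA 1 and CON 1 were the highest of their groups. DDX10, an RNA helicase, and LYAR, a nucleolar zinc-finger protein of growing cells, fell by 0.80 and 0.69, and these 2 calls and those of UTP4, WDR75, TSR1 and NAT10 held in 20 of 20 alternatives.

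NOP14 fell by 0.55 and RRP12 by 0.49 (adjusted p = 0.00735 and 0.0124), calls lost without GCA 3 and, for RRP12, also without GCA 2. RRP9, a protein specific to the U3 particle, had 145, 143 and 142 CPM in GCA 1 to 3, against 250, 156 and 168 CPM in CON 1 to 3. Its groups did not overlap, but CON 1 spread the CON values (log2 -0.42 ± 0.16, adjusted p = 0.0584), and 10 of 20 alternatives called it, among them the block (adjusted p = 0.0402) and the correction (-0.80, adjusted p = 0.000905). Without CON 1 its value was -0.18 (adjusted p = 0.09). BYSL, the gene of bystin, had -0.27 ± 0.13 (adjusted p = 0.117) and passed with the correction (-0.51, adjusted p = 0.00274). UTP14A had -0.21 ± 0.15 (adjusted p = 0.291). Beyond the members, 24 of 48 other small-subunit factors were lower and none higher, where 18.1% of all tested genes were lower and 18.3% higher. Their median was -0.40, and with the correction 19 were lower, where 13.5% of all tested genes were. UTP6, PDCD11 and FCF1 had the lowest p and fell by 0.99, 0.92 and 0.82, and all 3 held with the correction.

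In large-subunit assembly 6 of 12 members were lower and none higher, where 18.1% of all tested genes were lower and 18.3% higher. Of the 12 values 11 were negative, and the median log2 fold change was -0.47. With the correction 5 of 12 were lower, where 13.5% of all tested genes were. The difference from the small-subunit members was not tested. DDX18, an RNA helicase, had 28.5, 41.5 and 35.0 CPM in GCA 1 to 3, against 62.5, 66.8 and 65.8 CPM in CON 1 to 3 (-0.89 ± 0.14, adjusted p = 0.000481). GNL3, the gene of the GTPase nucleostemin, known from stem and cancer cells, had 45.4, 65.4 and 63.3 CPM in GCA, against 84.5, 101 and 97.3 CPM in CON (-0.70 ± 0.15, adjusted p = 0.00311). For both, replicate 1 was the lowest library of each group and the groups stayed apart; both calls held in 20 of 20 alternatives. WDR12, GNL2, RRP1B and NIP7 fell by 0.61, 0.58, 0.52 and 0.52, and the correction ended these 4 calls (adjusted p from 0.0585 to 0.109). RRP1B and GNL2 also lost theirs without GCA 3.

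BOP1, PES1 and WDR12 form the PeBoW complex, which large-subunit maturation requires. Of the 3, WDR12 alone was called. BOP1 had 503, 504 and 517 CPM in GCA 1 to 3, against 842, 578 and 551 CPM in CON 1 to 3. The GCA values were almost level and below all CON values, and CON 1 stood apart (log2 -0.37 ± 0.16, adjusted p = 0.0868). PES1 had 278, 229 and 221 CPM in GCA, against 428, 268 and 273 CPM in CON (-0.41 ± 0.18, adjusted p = 0.0864). Its groups overlapped, since GCA 1 exceeded CON 2 and CON 3, and the block gave a call (adjusted p = 0.0226). With the correction BOP1 (-0.83) and PES1 (-0.60) passed (adjusted p = 0.0012 and 0.0312) and WDR12 did not (-0.25, adjusted p = 0.0628).

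PPAN was the one member with a positive log2 fold change (0.29 ± 0.17, adjusted p = 0.197). PPAN, a nucleolar protein of the large-subunit pathway, had 11.7, 15.3 and 14.1 CPM in GCA 1 to 3, against 11.5, 12.6 and 9.53 CPM in CON 1 to 3, so the groups overlapped. The value turned to -0.075 with the correction, and without replicate 1 of both groups it was 0.44 and passed (adjusted p = 0.0209). NOP2, a methyltransferase of 28S RNA, NOP16, and RRS1, which helps to bring 5S RNA into the subunit, had -0.15, -0.26 and -0.16 (adjusted p = 0.378, 0.152 and 0.488). NOP16 passed with the correction (-0.45, adjusted p = 0.00567). Among other large-subunit factors 30 of 53 were lower and 1 higher, where 18.1% of all tested genes were lower and 18.3% higher. Their median was -0.47, and with the correction 25 were lower, where 13.5% of all tested genes were. MDN1, a giant ATPase that strips factors from the subunit, fell by 0.95, and the helicase gene DDX55 and RBM28 by 0.93 and 0.82, all 3 also with the correction. NOP53 rose by 0.37 (adjusted p = 0.049), a call lost with the correction (-0.06) and when single libraries were left out (adjusted p up to 0.188).

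Across the 5 lists of biogenesis genes outside the members, 66 of 154 tested genes were lower (42.9%) and 3 higher (1.95%), with a median log2 fold change of -0.39. Over all tested genes 18.1% were lower and 18.3% higher. By list the count ran from 2 of 16 for polymerase I to 30 of 53 for the large subunit. With the correction 57 were lower, where 13.5% of all tested genes were. POLR1D alone was then higher (0.35, adjusted p = 0.0423, against 0.11 and adjusted p = 0.48 without the correction). The members' own share was 71.1% lower. These lists and the members were compared as counts only.

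**Figure D3:**
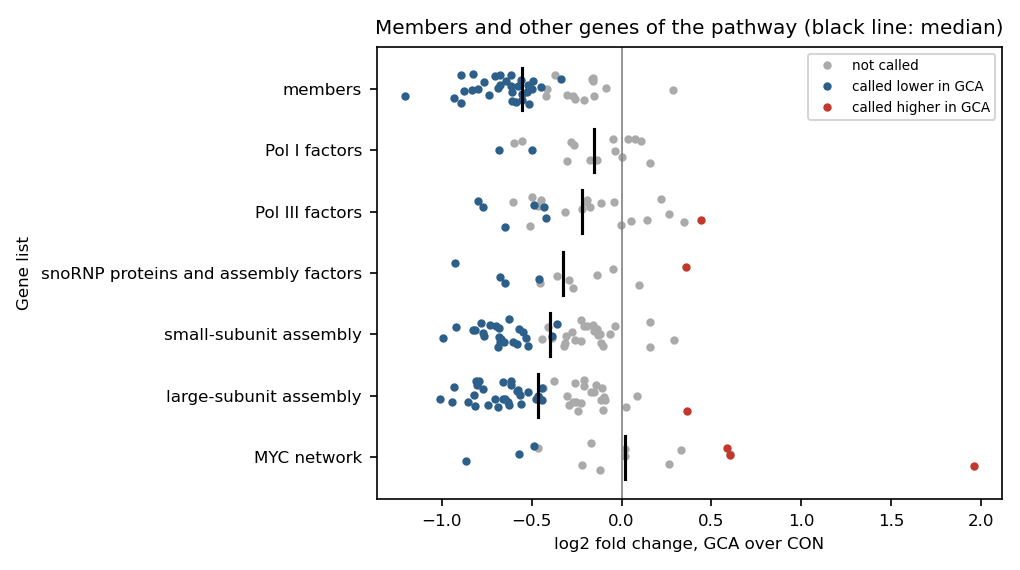
Each point is 1 gene's log2 fold change (GCA over CON) in the members and in 6 lists of other genes, with those called lower in GCA in blue, called higher in red and not called in grey; black lines are medians. Medians lie at -0.55 for members, -0.47 and -0.40 for large- and small-subunit factors, and 0.02 for the MYC network, in which MXD4 is the point at 1.96.

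GC content moved with the fold changes and with which members were called. Across the 45 members the log2 fold change and the transcript GC content from GENCODE release 29 had a Spearman correlation of 0.66 (0.57 across all tested genes with a GC value); the points share the same 6 libraries and genes are not independent replicates. Called members had a median GC content of 46.1%, the 13 others 57.1%. With offsets per library smoothed on GC content and gene length, 27 members were lower and none higher, where 13.5% of all tested genes were lower and 13.6% higher. The log2 fold change was then negative for all 45, from -0.88 to -0.02, with a median of -0.48 against -0.01 over all tested genes, and the Spearman correlation was -0.27. Of the 27, 19 were also called without the correction and 8 were not (MYBBP1A, FBL, NHP2, RRP9, BYSL, NOP16, BOP1 and PES1). All 8 are among the members whose uncorrected log2 fold change became over 1.5 times smaller, or turned, without CON 1. The correction was not fitted with single libraries left out, so whether these 8 calls depend on CON 1 was not tested. In turn 13 lost their call: NCL, NPM1, NOLC1, NOP58, WDR43, UTP15, UTP20, HEATR1, WDR12, RRP1B, GNL2, NIP7 and POLR3K. UTP14A, NOP2, RRS1, PPAN and POLR1C were called in neither. With the replicate block added to the correction 35 members were lower, where 16.3% of all tested genes were: the same 27, 6 of the 13 that had lost their call (NCL, NOLC1, WDR43, UTP20, HEATR1 and RRP1B, adjusted p from 0.00638 to 0.038), and NOP2 and RRS1 (adjusted p = 0.0452 and 0.0181).

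**Figure D4:**
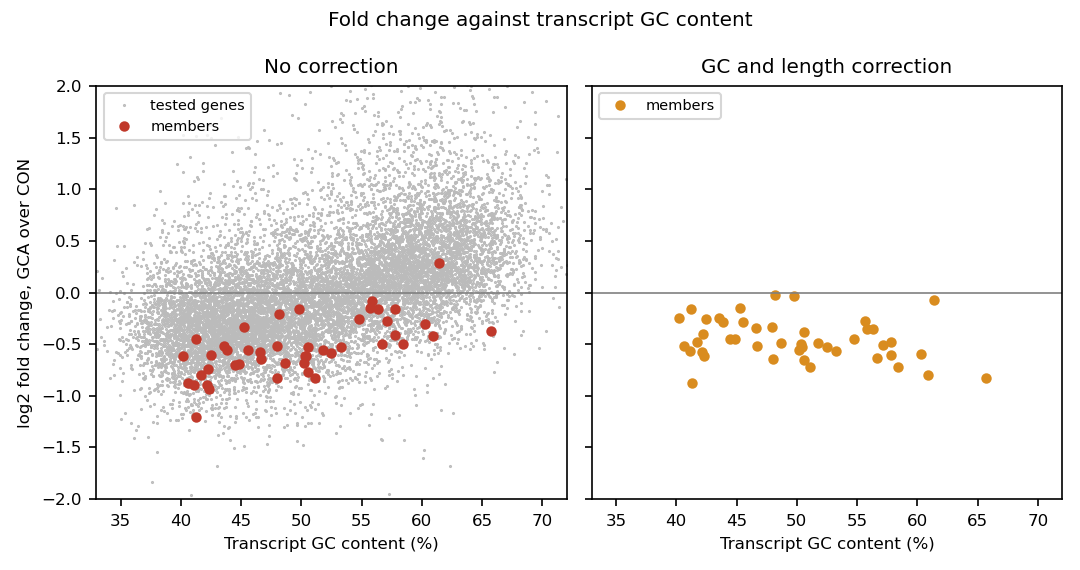
Left, log2 fold change (GCA over CON) against transcript GC content for tested genes (grey) and members (red); right, the members' values with the correction for GC content and length (orange). On the left 44 of 45 members lie below 0, on the right all 45 do; tested genes beyond the axis limits are not drawn.

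**Figure D5:**
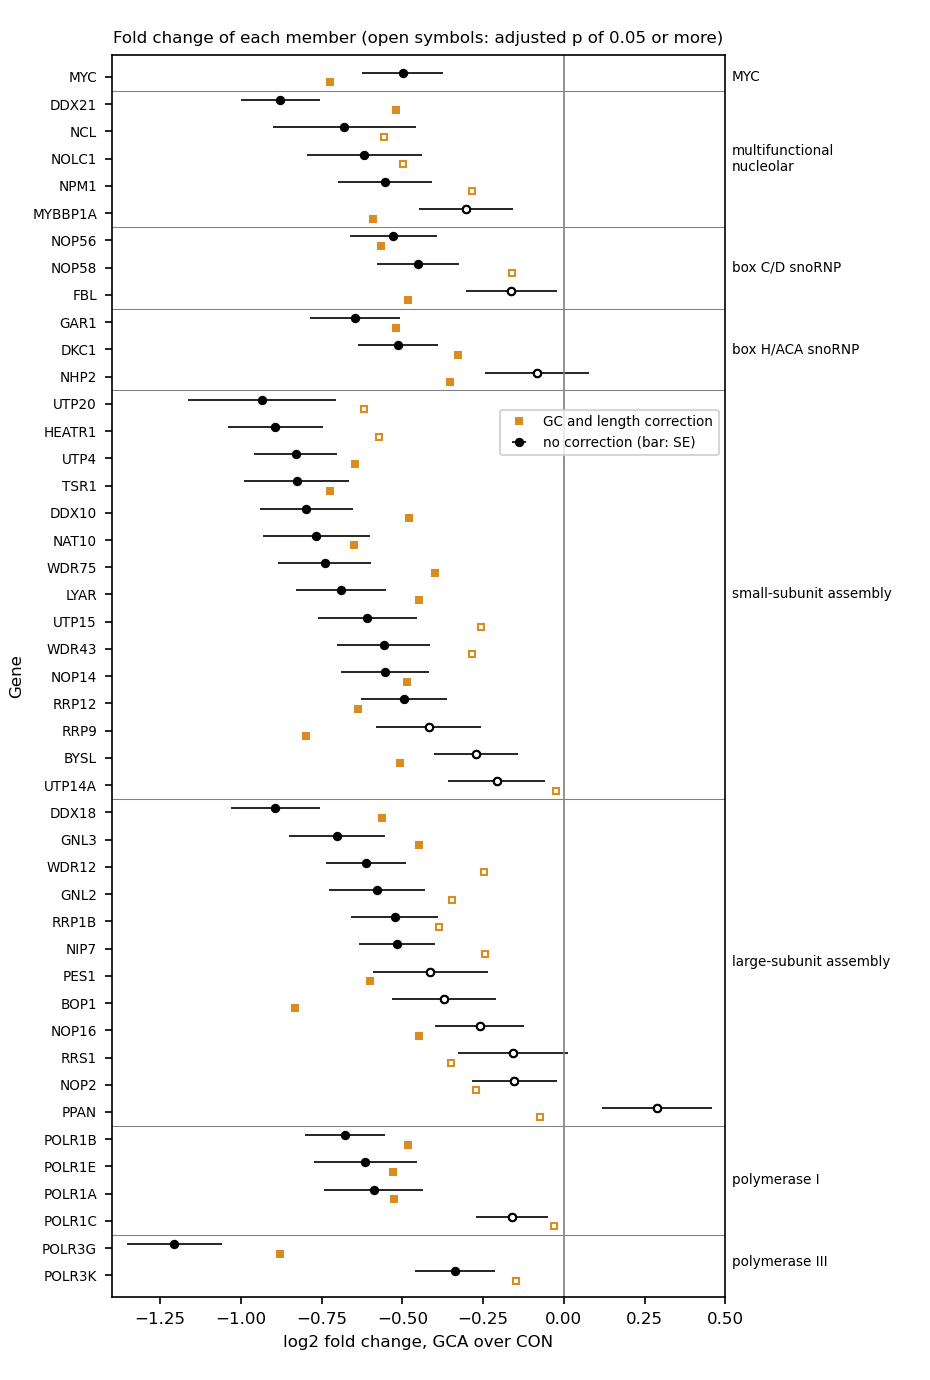
Log2 fold change (GCA over CON) of each member without correction (circles, bars SE) and with the GC and length correction (squares), grouped by role; filled symbols have an adjusted p under 0.05. POLR3G lies farthest left at -1.21 and PPAN is the one circle right of 0, while all 45 squares are left of 0.

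Gene length and level went with the fold change less closely. The Spearman correlation of the 45 log2 fold changes was -0.47 with gene length, so longer genes had lower values, and 0.42 with the mean FPKM of the 6 libraries (fragments scaled by gene length and library total, the scale on which different genes can be compared). FPKM itself contains gene length, and with mean CPM the value was 0.21. On that scale the members spanned 1.13 (UTP20) to 441 (FBL) in GCA and 2.22 (UTP20) to 506 (FBL) in CON. Within complexes the levels differed widely. FBL, NOP56 and NOP58 averaged 441, 71.1 and 21.5 FPKM in GCA and 506, 106 and 30.4 FPKM in CON. NHP2, DKC1 and GAR1 averaged 271, 28.3 and 23.9 FPKM in GCA and 293, 41.6 and 38.4 FPKM in CON. BOP1, PES1 and WDR12 averaged 206, 46.5 and 4.07 FPKM in GCA and 272, 63.2 and 6.46 FPKM in CON. In each of these 3 complexes the gene with the highest FPKM had the log2 fold change nearest 0 without the correction and in none of them with it, where NOP58 (-0.16), DKC1 (-0.33) and WDR12 (-0.25) were nearest. UTP4, with 31.3 FPKM in GCA and 57.2 FPKM in CON the highest of the 5 UTP-A genes, had -0.83 where the 5 ranged from -0.89 to -0.56.

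The summed FPKM of the 15 small-subunit members was 322, 304 and 287 in GCA 1 to 3, against 502, 423 and 436 in CON 1 to 3. For the 12 large-subunit members it was 449, 449 and 437 in GCA, against 668, 566 and 544 in CON. The 4 polymerase I members summed to 45.6, 43.7 and 37.6 in GCA, against 62.0, 59.8 and 56.6 in CON, and the 2 polymerase III members to 20.97, 22.6 and 21.9 in GCA, against 35.1, 33.5 and 31.8 in CON. None of these 4 sums overlapped between the groups. The 3 box H/ACA members came closer, with 349, 316 and 304 in GCA, against 436, 359 and 325 in CON, where GCA 1 exceeded CON 3. Such sums weigh the most abundant genes most. BOP1 had the highest FPKM of the large-subunit members (206 in GCA and 272 in CON). RRP9 had the highest of the small-subunit members (91.5 in GCA and 125 in CON). Neither gene was called without the correction, so these sums do not show a fall of each gene in the class.

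Annotation gave the members a feature that the choice of genes did not use. In GENCODE release 29, 8 of 45 members (17.8%) contain small nucleolar RNA genes within their bounds on the same strand, against 199 of 12553 tested genes with an annotation (1.59%). NCL holds SNORD20, SNORD82 and SNORA75, GNL3 and NOP56 hold several more, and DKC1, NOP58, WDR43, TSR1 and PPAN are the others. Of these 8 hosts 7 fell (median over the 8 of -0.54 on the log2 scale), and of the 37 other members 25 fell (median -0.55). Of the 13 members with an E-box 6 were called lower (median log2 fold change -0.42, median GC content 51.8%), and of the 22 without one 18 were (median -0.61, GC content 46.0%). With the correction these counts were 8 of 13 (median -0.51) and 13 of 22 (median -0.45). Of all tested genes 18.1% were lower without the correction and 13.5% with it. These splits of the members were made after the values were known and carry no test.

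Some single values rest on reads that neighbours could share, because no source used here states the strand setting of the counting. Exons of PPAN overlap a readthrough gene with P2RY11 on the same strand over 56.0% of their length, and those of NOP2 another same-strand gene over 54.4%. On the opposite strand, RMND5B covers 27.4% of NHP2's exonic length, LGALS8 23.2% of HEATR1's, SRR 20.7% of TSR1's and COG8 20.2% of NIP7's.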

How the data were processed

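RNA-seq libraries (3 GCA, 3 CON) were grouped by the treatment label and matched to table columns by sample title. Raw counts per gene symbol were deposited by the authors. The deposited FPKM values equal count over library total and 1 length per gene (largest relative difference 8.99e-15), so they add no independent measurement; they served to compare levels between genes. Per the submitters' processing notes, the tools were HTSeq 0.11.2, HISAT2 2.2.1.0 and fastp 0.20.1, with build hg38; the role of each, the annotation and the strand setting are not stated there.

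From the counts, edgeR 4.0.16 (R 4.3.3) was run with TMM, filterByExpr (minimum count 10, minimum total 15), glmQLFit, glmQLFTest and Benjamini-Hochberg adjustment over 12604 genes at 0.05. The SE is the log2 fold change divided by the square root of F. Libraries held 18057453 to 20531612 counts. Pairs of libraries within a group gave a chi-square per gene of 4.37 to 39.5, so none was a duplicate. The GC and length correction used lowess (span 0.3) of each library's log2 CPM (prior count 2) deviations on GC content (GENCODE release 29, 99.2% of genes, 45 of 45 members), then on length. The test and the correction were run on simulated counts. Those for the correction held a linear GC trend in the libraries of a single group and no length trend, so its length step was not tested. Alternatives included DESeq2 1.42.0, limma 3.58.1, other scalings and filters, the replicate block and left-out libraries.

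Same-numbered libraries' deviations correlated at 0.206, 0.137 and 0.104 and differently numbered ones at -0.172 to 0.0954. By a limit of 0.1, which 0.104 and 0.0954 straddle narrowly, the numbers were tried as pairs in the replicate block. The labels state no pairing. Calls and adjusted p-values therefore come from the fit without the block unless another setting is named. Members, lists and tests were chosen with earlier results of these data known. All members are named, and of each other list the 3 lowest p in each direction among called genes (of the MYC network, all tested); POLR3GL and POLR1D were added after their values were seen. The result for 1 gene of these lists is not reported here.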

Additional observations from a re-analysis of the deposited data

How the results depend on the processing

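The number of members lower in GCA was 32, and 19 to 37 over 20 alternatives; none was higher except without replicate 1 of both groups, where 1 (PPAN) was. Their median log2 fold change ran from -0.59 to -0.45. Leaving out 1 library gave 19 to 32 members lower, 1128 to 3482 of all tested genes lower and 1493 to 3225 higher, against 2277 and 2307 with all 6 libraries; 19 members, 1128 and 1493 genes were without GCA 3, 1484 lower genes without GCA 2, 1297 without CON 2 and 3482 without CON 1. Without replicate 1 of both groups 3709 genes were lower and 3710 higher. The replicate block gave 35 members (32 of them called without it), 2645 genes lower and 2518 higher; together with the GC and length correction it gave 35, 2057 and 1961. The block alone added MYBBP1A, RRP9 and PES1 and changed no other member's call; beside the correction it added the 8 members named with the GC results.

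The log2 fold change of PPAN turned to -0.075 with the correction and -0.076 with the correction and the block. Without 1 library the log2 fold change of NHP2 ran from -0.20 to 0.13 and the log2 fold change of RRS1 from -0.28 to 0.083, both turning positive without CON 1. Without replicate 1 of both groups they were 0.095 and 0.0095. The cause was not tested. Calls held in 20 of 20 alternatives for 12 members. With 3 libraries a group, small changes lie near what the test can call; the lowest member count, 136, is far above the floor of 3 counts.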
